A study of Rattus norvegicus with 6 samples.

Results

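Hgf, the gene of hepatocyte growth factor, and Met, the gene of its receptor, are 2 of the 30560 genes counted in single nuclei of rat brain after stroke. Both were found by symbol in the gene table, Hgf as ENSRNOG00000007027 and Met as ENSRNOG00000052745. The pair was chosen by its measured UMIs: Met was nearly absent from oligodendrocyte precursor cells (OPCs) of Sham brains and present in OPCs of the infarcted hemisphere. The levels of Met in OPCs, and the comparison of OPCs between MCAO ipsi and Sham, are therefore given as a description with no test.

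The nuclei came from the brains of male wild-type Wistar rats, 12 weeks old, taken 48 h after permanent middle cerebral artery occlusion (MCAO) or a Sham operation. The Sham group is 2 libraries, from the left (Sham L) and the right (Sham R) hemispheres of the same 4 rats. The MCAO contra and MCAO ipsi groups are 2 libraries each, from the hemisphere opposite to the occlusion and from the occluded side of 3 rats with a moderate infarct (mMCAO) and of 4 rats with a severe infarct (sMCAO). Every library pools rats, so single animals cannot be separated, the 2 libraries of an MCAO group also differ in severity, and p-values measure only the spread between these libraries.

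HGF is secreted as an inactive precursor that serine proteases cut into the active ligand. MET is a receptor tyrosine kinase and the receptor of HGF. Once bound it recruits adaptors such as GAB1 and GRB2 and signals through the MAPK, PI3K and STAT3 routes to growth, survival and motility. In the forebrain the pair is known from the migration and wiring of cortical neurons, and in other tissues from repair after injury.

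Between 8232 and 13766 nuclei per library were kept, with 33012945 to 52513380 UMIs in the deposited libraries and a median of 1917.5 UMIs per kept nucleus in the shallowest, sMCAO ipsi. Pairs of libraries shared 118 to 281 cell barcodes, at most 2.18% of the smaller library. Nuclei were put into 11 classes by their markers. The OPC-like class held 2107 nuclei, of which 167 lay near a limit of the gate, and its 5 measured OPC markers summed to a level of 3412 CPM, against 138 CPM in the oligodendrocyte-like class. The list for other GABAergic neurons was higher in the OPC-like class, at 7523 CPM (5868 CPM in those neurons themselves), nearly all of it from Nxph1 (4113 CPM) and Adarb2 (3231 CPM), while Gad1 and Gad2, which make GABA, stood at 72.1 and 60.6 CPM against 266 and 254 CPM in the neurons. The astrocyte-like class held 1798 nuclei and the myeloid-like class 3143. CPM scales the UMIs of a gene to a common total of UMIs of its class and library. Paired values are given left then right hemisphere for Sham and moderate then severe pool for MCAO, and ranges in parentheses beside them are exact 95% Poisson intervals of the UMI count, and these cover counting error only. In a class, more RNA per nucleus and more nuclei with the transcript are not separated by a CPM value.

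In OPC-like nuclei, Met gave 0 and 1 UMI in the Sham hemispheres (0 and 5.16 CPM) and 2 and 1 UMIs on the contralateral side (3.72 and 2.70 CPM). On the side of the infarct it gave 30 UMIs in mMCAO ipsi (45.9 CPM, 30.9 to 65.5) and 93 in sMCAO ipsi (85.3 CPM, 68.8 to 104). Both ipsilateral libraries lay above the other 4, with no overlap, and the severe one was 1.86 times the moderate one (1.22 to 2.91). Over the pooled libraries the level was 33.9 times that of Sham, with a counting interval of 5.97 to 1348 since Sham held 1 UMI. It was 21.3 times that of MCAO contra (7.13 to 105). Met was seen in 24 (4.42%) and 68 (14.1%) of the ipsilateral OPC-like nuclei of the moderate and severe pools.

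The nuclei differed in depth, so each was also thinned to 1000 UMIs. Met then remained in 13 of 275 nuclei (4.73%) in mMCAO ipsi and in 35 of 458 (7.64%) in sMCAO ipsi, against 0 of 75 and 0 of 44 in the Sham hemispheres and 1 of 270 (0.370%) and 0 of 141 contralaterally. The exact 95% binomial upper limits of the Sham shares were 4.8% and 8.04%, so absence of Met from Sham OPCs could not be shown by the thinned share. Oligodendrocyte-like nuclei, a neighbouring lineage stage that served as the background for free RNA, held Met in 0 of 142 and 2 of 801 (0.25%) thinned nuclei of the same ipsilateral libraries. By level, OPC-like nuclei exceeded them 13 times (4.04 to 66.5) in mMCAO ipsi and 35.1 times (13.3 to 132) in sMCAO ipsi.

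**Figure D1:**
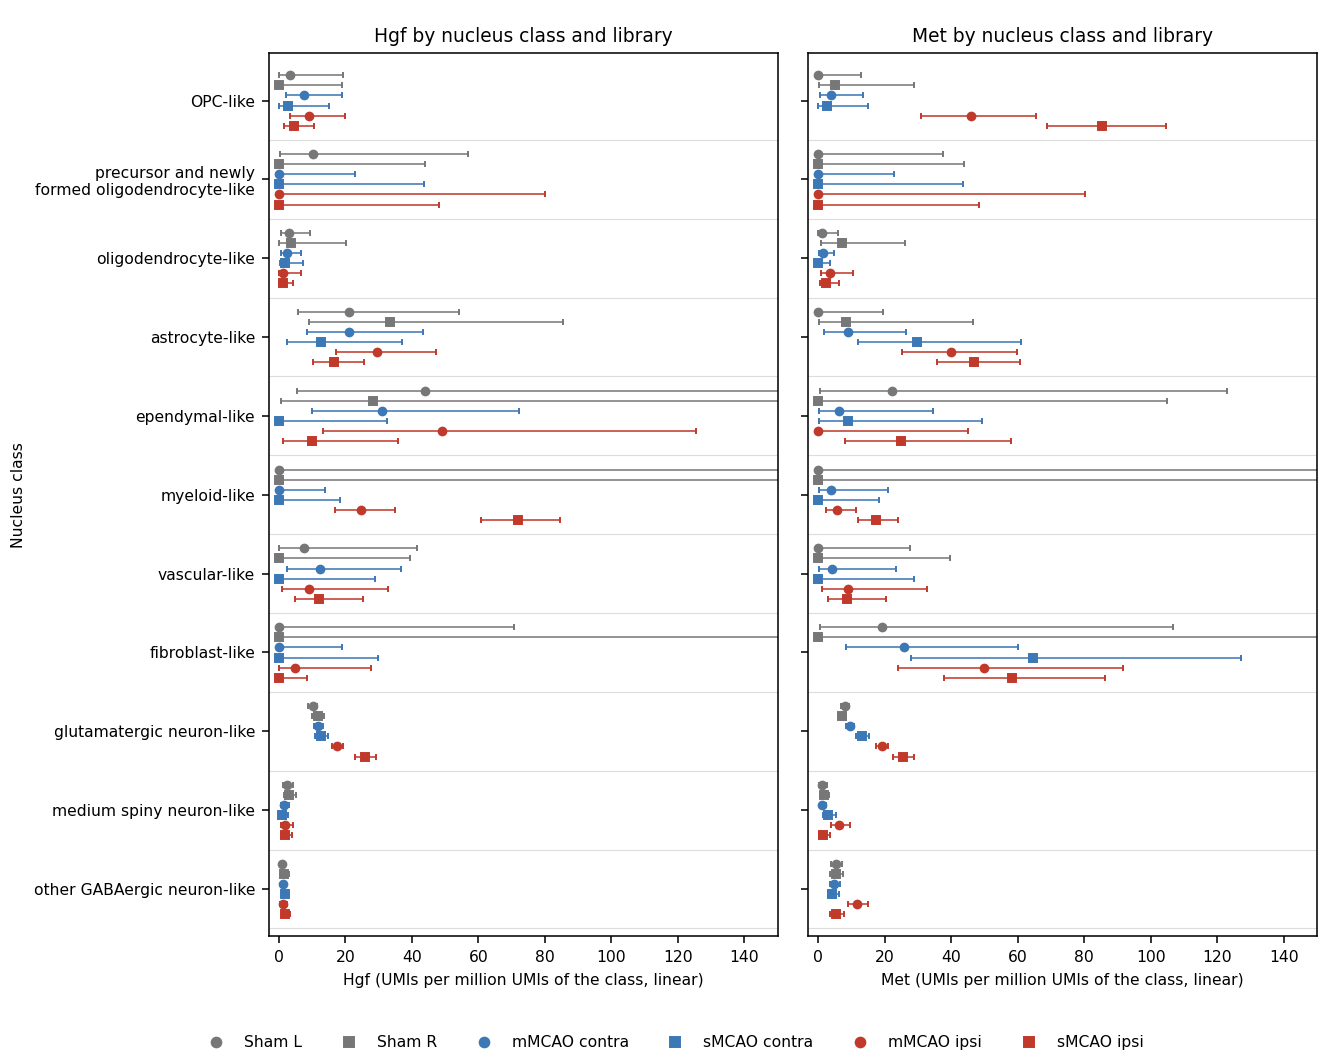
Level of Hgf and Met (CPM, horizontal axis, cut at 150 so that longer error bars run past it) in each class of nuclei. Points are the 6 libraries and bars are exact 95% Poisson intervals. Met in the OPC-like class stands at 45.9 and 85.3 CPM in the ipsilateral libraries and at 5.16 CPM or less in the others, and Hgf in the myeloid-like class was counted in the ipsilateral libraries and in no other.

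Most Met UMIs of the OPC-like class fell in its proliferating subcluster. Subcluster 37 (546 nuclei, led by Hmga2, Tnc, Cenpf, Diaph3 and Top2a) held 112 of the 123 ipsilateral Met UMIs (91.1%) in 46.9% of the ipsilateral OPC-like nuclei. Its level was 84.0 CPM in mMCAO ipsi and 126 CPM in sMCAO ipsi. In subcluster 17, which carried Vcan, Megf11 and Pdgfra, the level was 8.33 CPM (2 UMIs) and 17.8 CPM (6 UMIs). Within each ipsilateral library subcluster 37 thus stood 10.1 times (2.53 to 87.5) and 7.10 times (3.13 to 19.9) above subcluster 17. These subclusters come from the same counts, so the ratios carry no test. Subcluster 37 held 18 nuclei in Sham, 47 contralaterally and 481 ipsilaterally. Its Sham nuclei gave 0 Met UMIs, with an upper limit of 191 CPM, and were too few to show that Met was absent. The pooled level was 29.0 CPM contralaterally (2 UMIs, 3.51 to 105) and 113 CPM ipsilaterally (92.7 to 135). The fold of the class over Sham does not separate Met per nucleus from the number of these nuclei.

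The cell cycle list summed to 413 to 732 CPM in the OPC-like nuclei of the 4 Sham and contralateral libraries and to 3309 and 3655 CPM in mMCAO ipsi and sMCAO ipsi. Ipsilateral OPC-like nuclei with at least 2 cell cycle UMIs held Met at 64.9 CPM (moderate) and 112 CPM (severe). Those with fewer still held 25.4 CPM (8 UMIs) and 32.9 CPM (12 UMIs). Met was thus also counted in nuclei with few cell cycle transcripts, at a lower level. The neuronal RNA measured in the whole OPC-like class would by itself give 5.25 Met UMIs in mMCAO ipsi and 6.34 in sMCAO ipsi. How these divide between the nuclei with more and fewer cell cycle UMIs was not determined. Met beyond free RNA is therefore not shown for the nuclei with few cell cycle transcripts.

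In a second random draw to 1000 UMIs, 10 ipsilateral OPC-like nuclei of the moderate and 42 of the severe pool held Met. Adamts9, a metalloproteinase of the extracellular matrix, was seen in 80.0% and 45.2% of them and in 10.6% and 9.86% of the nuclei without Met. Tnc, the matrix glycoprotein tenascin C, was seen in 70.0% and 54.8% against 20.8% and 21.6%. Cd44, the hyaluronan receptor and a co-receptor of MET, was seen in 5 of the 10 and in 23.8% of the 42, against 10.9% and 13.5%. Vim, the intermediate filament vimentin, was seen in 2 of the 10 and in 33.3% of the 42, against 12.1% and 14.9%. At least 1 OPC marker was seen in 70.0% and 90.5% of the nuclei with Met and in 87.5% and 89.2% of those without. The gate used the same markers, pooled over neighbouring nuclei, so these shares were partly set by it and do not test the identity of the nuclei. The study picked Adamts9, Tnc, Cd44 and Vim on these same libraries.

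The level rested in part on how the class was bounded. With a stricter gate, which kept 17.7% of the ipsilateral nuclei of subcluster 37 and 73.4% of those of subcluster 17, Met in OPC-like nuclei averaged 31.9 CPM over the ipsilateral libraries in place of 65.6 CPM, with 23 UMIs in 446 nuclei and 0 UMIs in the Sham and contralateral libraries. Macrophage markers also moved in the OPC-like class, from 25.8 to 45.4 CPM in the Sham and contralateral libraries to 91.7 and 137 CPM in the ipsilateral ones, and the part of this in the level of Met was not tested. Hgf stayed low there, at 0 to 9.17 CPM (1 and 0 UMIs in Sham, 4 and 1 contralaterally, 6 and 5 ipsilaterally).

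**Figure D2:**
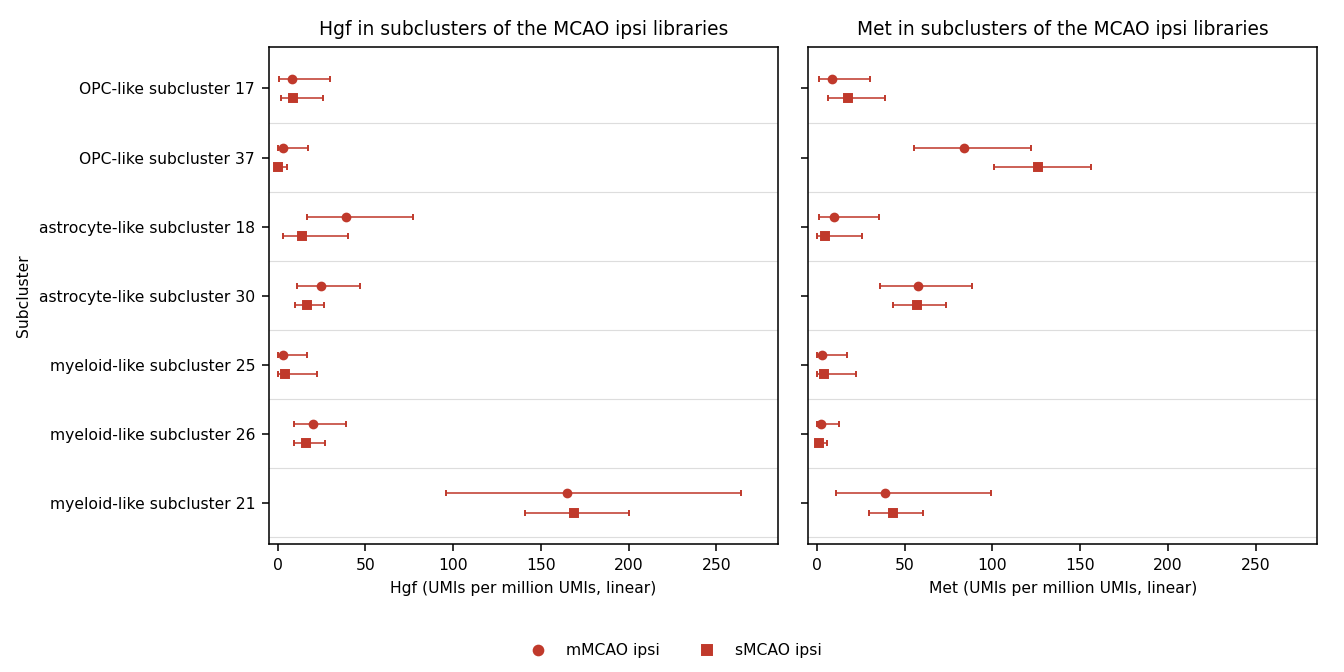
Level of Hgf and Met (CPM, horizontal axis) in subclusters of the OPC-like, astrocyte-like and myeloid-like classes in the 2 MCAO ipsi libraries, with exact 95% Poisson intervals. Met in OPC-like subcluster 37 stands at 84.0 and 126 CPM in the ipsilateral libraries against 8.33 and 17.8 CPM in subcluster 17, and Hgf in myeloid-like subcluster 21, which held nearly the same nuclei as the macrophage-like cluster described below, at 165 and 169 CPM.

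Astrocyte-like nuclei also carried more Met after MCAO. They gave 0 and 1 UMI in Sham (0 and 8.34 CPM), 3 and 7 UMIs contralaterally (9.02 and 29.6 CPM) and 23 and 59 UMIs ipsilaterally (39.9 and 46.9 CPM). Both ipsilateral libraries lay above all others, and sMCAO contra lay nearest to them. In MCAO ipsi against Sham the log2 fold change of Met was 3.60 (SE 1.03, edgeR quasi-likelihood test, Benjamini-Hochberg adjusted p = 0.0250), in a comparison where 18.3% of the 5990 genes tested were called. A call here means an adjusted p under 0.05 and a log2 fold change of at least 0.6 either way. Met was called, but it entered the test through the ipsilateral libraries, where it was high. From these same libraries the study had named Met among genes that infarction-restricted OPCs share with reactive astrocytes. The call is therefore no independent evidence. With free neuronal RNA subtracted Met no longer passed the filter on low counts. Its ipsilateral level was then 43.1 and 50.6 CPM, with 21 and 57 UMIs left. The call rested on both Sham libraries, with an adjusted p of 0.312 without Sham L (log2 fold change 2.32) and of 0.0673 without Sham R (7.50, a fitted value over a Sham library with 0 UMIs that sets no bound). DESeq2 gave an adjusted p of 0.131.

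Against MCAO contra, where 15.4% of genes were called, Met in astrocyte-like nuclei was 1.24 higher on the log2 scale (adjusted p = 0.164), and MCAO contra against Sham gave 2.36 (adjusted p = 0.703). In that last comparison edgeR called 0 genes (0%) and DESeq2 called 0, with 448 genes at an unadjusted p under 0.05. Of the ipsilateral Met UMIs of the class, 79 of 82 (96.3%) fell in subcluster 30, which carried Gfap, Aqp4, Tnc, Cd44 and Vim and held 66.7% of the ipsilateral astrocyte-like nuclei. Its level was 57.6 CPM in mMCAO ipsi and 56.8 CPM in sMCAO ipsi, against 9.78 and 4.58 CPM in subcluster 18, led by Itih3, Slc6a11 and Agt. Contralaterally subcluster 30 held 6 Met UMIs in 46 nuclei (131 CPM, 47.9 to 284). This was not below its pooled ipsilateral level of 57.0 CPM (45.1 to 71.0) in 561 nuclei. Its 11 Sham nuclei gave 0 Met UMIs, with an upper limit of 415 CPM. The class level thus does not separate Met per nucleus from the number of these nuclei. Cell cycle transcripts of the class also rose, from 153 to 243 CPM in the 4 other libraries to 1929 and 3087 CPM in mMCAO ipsi and sMCAO ipsi. In mMCAO ipsi, astrocyte-like nuclei with at least 2 cell cycle UMIs held Met at 42.1 CPM (9 UMIs). Those with fewer held 38.6 CPM (14 UMIs). In sMCAO ipsi the values were 58.8 CPM (42 UMIs) and 31.3 CPM (17 UMIs). The intervals overlapped within each library. Macrophage markers went from 15.9 and 25 CPM in Sham, and 18 and 88.9 CPM contralaterally, to 161 and 234 CPM ipsilaterally. The part of either in the change of Met was not tested. With a stricter gate the ipsilateral level of Met averaged 22.4 CPM in place of 43.4 CPM.

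Fibroblast-like nuclei held Met on both sides of the MCAO brains. Their level was 19.2 CPM (1 UMI) and 0 in Sham, 25.7 and 64.6 CPM contralaterally, and 49.8 and 58.3 CPM ipsilaterally. The contralateral and ipsilateral libraries overlapped, with a pooled ratio of 1.36 (0.702 to 2.80). Too few UMIs were counted for the test. Beside its own list, at 6581 CPM, the class carried astrocyte markers at 3251 CPM, above all Slc4a4 (1732 CPM) and Slc1a3 (679 CPM), with Gfap at 15.7 CPM and Aqp4 at 4.89 CPM. Cluster 35, which held 26 of the 35 ipsilateral Met UMIs of the class, also had the astrocyte list next after its own. Cell cycle and macrophage markers reached 2144 and 602 CPM in sMCAO ipsi, against 45.3 to 896 and 153 to 428 CPM in the other libraries, and their part in the level of Met was not tested.

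Myeloid-like nuclei gave 0, 0, 1 and 0 Met UMIs in the Sham and contralateral libraries, 7 in mMCAO ipsi (5.58 CPM) and 35 in sMCAO ipsi (17.2 CPM). The neuronal RNA measured in these nuclei would by itself give 7.75 UMIs in mMCAO ipsi and 1.99 in sMCAO ipsi, so the 7 UMIs of the former did not exceed it in the class as a whole and the 35 of the latter did. The macrophage-like cluster 19 held 37 of the 42 ipsilateral UMIs (88.1%), 4 of 7 in mMCAO ipsi and 33 of 35 in sMCAO ipsi. Its level was 39.1 and 43.3 CPM. This was 18 times (2.58 to 199, 4 against 2 UMIs) and 26.4 times (6.75 to 227, 33 against 2 UMIs) the level in the microglia-like cluster 9. Oligodendrocyte-like nuclei held 0 to 4 Met UMIs in each library, vascular-like and ependymal-like nuclei 0 to 5, and the class of precursor and newly formed oligodendrocytes 0 in all 6. The precursor class held 32 to 72 nuclei per library, too few to show that Met was absent there.

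Most of the Hgf UMIs counted in every library lay in glutamatergic neuron-like nuclei. The counts cover captured nuclei only, and the study states that its isolation of nuclei tends to leave out immune cells. Depth differed too, with a median of 4126 UMIs per nucleus in this class and 880 in the myeloid-like class. Over all kept nuclei Hgf gave 275 and 241 UMIs in Sham, 340 and 221 contralaterally, and 515 and 493 ipsilaterally. Glutamatergic neuron-like nuclei held 80.0% and 81.7%, 84.4% and 82.8%, and 81.2% and 56.0% of these in the same order. The share was lowest in sMCAO ipsi, where these neurons were 1201 of the nuclei against 3324 to 5459 in the other libraries. Such a share does not by itself tell fewer neurons from less RNA per neuron. These neurons gave 276 Hgf UMIs there, against 183 to 418 in the other libraries, and their level, given below, was highest there.

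Myeloid-like nuclei held further Hgf UMIs on the side of the infarct, and in the severe pool the most after glutamatergic neurons. Myeloid-like nuclei gave 0 Hgf UMIs in the 4 Sham and contralateral libraries, and 31 (24.7 CPM) and 146 (71.9 CPM) in the moderate and severe ipsilateral ones. These were 6.02% and 29.6% of all Hgf UMIs of the ipsilateral libraries. Against MCAO contra, whose 396 myeloid-like nuclei gave 0 UMIs, the level was at least 8.41-fold higher, taking 3 UMIs over the group as the floor. Of these contralateral nuclei 320 lay in the microglia-like cluster 9 and 21 in the macrophage-like cluster 19. Their upper limits for Hgf were 14.2 and 260 CPM, against ipsilateral levels of 13.1 and 169 CPM in the same clusters. The fold thus does not separate Hgf per nucleus from the change in the kinds of myeloid nuclei. The 44 myeloid-like nuclei of Sham were too few to set a bound. The severe pool exceeded the moderate one 2.91 times (1.97 to 4.44).

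Hgf in the myeloid-like class fell below the filter on low counts and is given with no test. Neuronal RNA in the myeloid-like nuclei would by itself give 6.13 of the 31 UMIs in mMCAO ipsi and 1.89 of the 146 in sMCAO ipsi, so most of the Hgf counted there exceeded it.

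Most of this Hgf lay in a macrophage-like cluster and less in a microglia-like one. Cluster 19 carried all 10 measured macrophage markers and was led by Lrmda, Lilrb4, Gpnmb and Cd74. It gave 17 Hgf UMIs in 164 nuclei of mMCAO ipsi (166 CPM) and 129 UMIs in 873 nuclei of sMCAO ipsi (169 CPM). Cluster 9, with 12 of 13 microglia markers and led by Lyn and Dock8, stood at 11.9 and 13.9 CPM. Among the finer subclusters that ranked highest on the microglia list, subcluster 26, led within the class by Top2a and Ect2, gave 25 ipsilateral UMIs. Its pooled level was 17.7 CPM (11.5 to 26.1). Subcluster 25 gave 2 UMIs in 688 ipsilateral nuclei, at 3.46 CPM (0.419 to 12.5), so Hgf in it was near the floor. Within each library cluster 19 exceeded cluster 9 by 13.9 times (6.15 to 32.9) and 12.1 times (7.29 to 21.5).

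Between the pools the level in cluster 19 thus differed by less than its counting error, while its number of nuclei differed. Cluster 19 held 54.8% of the myeloid Hgf UMIs in 16.2% of the myeloid-like nuclei of mMCAO ipsi, and 88.4% in 51.7% of those of sMCAO ipsi. Cluster 19 also carried microglia markers, at 3471 CPM in the moderate and 3395 CPM in the severe pool beside macrophage markers at 2992 and 3313 CPM, whereas cluster 9 of the moderate pool stood at 4600 CPM for microglia and 513 CPM for macrophage markers. It carried dendritic cell markers too, at 958 CPM in the moderate and 1813 CPM in the severe pool, and neutrophil markers at 39.1 and 127 CPM. Their part in the Hgf counted was not tested.

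**Figure D3:**
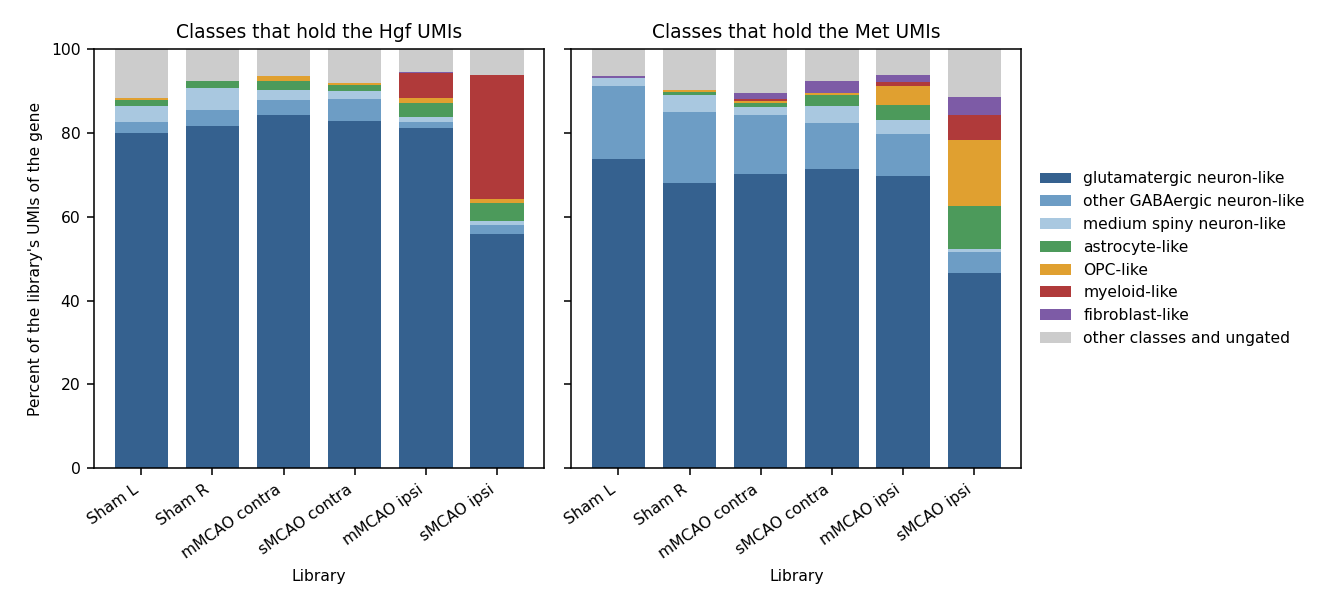
Share of all Hgf and all Met UMIs (percent, vertical axis) that came from each class of nuclei in each library (horizontal axis), as stacked bars with the other classes and ungated nuclei in grey. For Hgf the glutamatergic share is 80.0% or more in 5 libraries and 56.0% in sMCAO ipsi, where the myeloid-like share reaches 29.6%.

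By level rather than by total, ependymal-like and astrocyte-like nuclei ranked first for Hgf in Sham. The pooled Sham level was 37.3 CPM (7.68 to 109) in ependymal-like nuclei, from 3 UMIs, 25.9 CPM (11.2 to 51.0) in astrocyte-like nuclei, from 8 UMIs, and 10.8 CPM in glutamatergic neurons. The intervals of neighbours in this order overlapped. Precursor-class, vascular-like, oligodendrocyte-like and OPC-like nuclei stood at 2.08 to 5.49 CPM from 1 to 4 UMIs each, and fibroblast-like and myeloid-like nuclei at 0. Medium spiny neurons stood at 2.73 CPM (1.746 to 4.055) and other GABAergic neurons at 1.20 CPM (0.685 to 1.95), both below the glutamatergic level beyond their counting error.

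Hgf in astrocyte-like nuclei was 21.1 and 33.4 CPM in Sham, 21 and 12.7 CPM contralaterally, and 29.5 and 16.7 CPM ipsilaterally. The 3 groups overlapped, and the ipsilateral level was 0.80 times that of Sham (0.37 to 1.99). Unlike Met, Hgf was spread over the astrocyte-like subclusters: subcluster 30 held 68.4% of the ipsilateral Hgf UMIs of the class in 66.7% of its nuclei. Fibroblast-like nuclei gave 1 Hgf UMI in all, in mMCAO ipsi.

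In glutamatergic neurons Hgf rose on the side of the infarct. Its level was 10.2 and 11.7 CPM in the Sham hemispheres, 11.9 and 12.7 CPM on the contralateral side, and 17.5 and 25.9 CPM on the ipsilateral side. The ipsilateral libraries lay above the other 4, which lay close together. The log2 fold change was 0.86 against Sham (SE 0.17, edgeR adjusted p = 0.0189) and 0.80 against MCAO contra (SE 0.16, adjusted p = 0.0276), in comparisons where 6.83% and 3.73% of genes were called. Between MCAO contra and Sham it was 0.06 (adjusted p = 0.894), where 0.0201% of genes were called.

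The calls for Hgf in glutamatergic neurons needed most of the libraries. Against Sham the adjusted p was 0.0524 without mMCAO contra, 0.208 without Sham L and 0.0931 without Sham R. Against MCAO contra it was 0.201 when mMCAO contra and 0.158 when sMCAO contra was left out, 0.0746 without Sham L and 0.0716 without Sham R, and without sMCAO ipsi the log2 fold change was 0.56, under the limit for a call. The direction stayed the same in each. Macrophage markers in these neurons went from 5.44 to 7.31 CPM in the Sham and contralateral libraries to 14.2 and 24.6 CPM in mMCAO ipsi and sMCAO ipsi, and the part of such free RNA in the rise of Hgf was not tested. The class was also made up differently: cluster 4, described next, was 12.9% to 14.4% of its nuclei in the Sham and contralateral libraries and 14.8% and 17.99% in the ipsilateral ones, and cluster 15 was 4.83% to 8.42% in 5 libraries and absent from sMCAO ipsi.

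Within neurons, Hgf was concentrated in a single cluster at baseline. Neuron cluster 4 carried all 5 measured markers of layer 5 intratelencephalic neurons, the cortical projection neurons that stay within the telencephalon, and was led by Il1rapl2, Pdzrn3, Rorb, Scube1 and Kcnh5. It held 305 of the 492 Hgf UMIs of Sham neurons (62.0%) in 8.46% of the neuron nuclei, at 41.2 CPM (36.7 to 46.1). It exceeded all other neuron clusters together 10.9 times (8.46 to 14.1) in Sham L and 15.4 times (11.6 to 20.5) in Sham R. The next clusters were cluster 20 at 18 CPM, from 120 Sham nuclei, and cluster 30 at 13.9 CPM, while clusters 7 (led by Galnt14 and Rspo2), 6 (Ndst4 and Abi3bp) and 5 (Glis3 and Cux2) stood at 7.49, 6.74 and 4.47 CPM. Cluster 15, which ranked highest on the upper cortical layer list, also stood above cluster 4 on the layer 5 intratelencephalic list. On the log2 scale over all other nuclei the values were 1.88 and 1.23. Hgf in cluster 15 was at 1.13 CPM in Sham (2 UMIs), so this list does not by itself set apart the neurons rich in Hgf. Clusters of the same nuclei carry no test, and a finer clustering gave its leading cluster 48.4 CPM.

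Cluster 4 kept the highest Hgf total of the neurons after MCAO and its level rose. It stood at 37.3 and 45.7 CPM in the Sham libraries, 41.3 and 33.2 CPM contralaterally and 64.1 and 73.4 CPM ipsilaterally. The 2 ipsilateral libraries lay above the other 4. The log2 fold change was 0.64 against Sham (SE 0.15, edgeR adjusted p = 0.0276; 3.96% of genes called) and 0.88 against MCAO contra (SE 0.15, adjusted p = 0.00966; 2.45% called). Against Sham the call was lost without mMCAO contra (adjusted p = 0.0589), sMCAO contra (0.0572), Sham L (0.353), Sham R (0.106) or sMCAO ipsi (log2 fold change 0.59) and in DESeq2 (adjusted p = 0.157). Against MCAO contra it was lost without mMCAO contra (adjusted p = 0.0927) or sMCAO contra (0.152).

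Of the 4 neuron clusters where Hgf could be tested, 1 was called against Sham, and all 4 log2 fold changes were positive. The values for the other clusters were 1.33 in cluster 6 (adjusted p = 0.0902), 0.88 in cluster 7 (0.133) and 1.30 in cluster 5 (0.126). In cluster 6 the level was 7.59 and 5.45 CPM in Sham, 16.7 and 17.4 CPM in MCAO contra and 11.1 and 31.4 CPM in MCAO ipsi, so its contralateral and ipsilateral libraries overlapped. In other GABAergic neurons Hgf differed by 0.27 against Sham (adjusted p = 0.812).

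Met at baseline was spread over more neuron types than Hgf. Over all kept nuclei it gave 237 UMIs in Sham L and 175 in Sham R, and glutamatergic neurons held 73.8% and 68.0% of these. By class the pooled Sham level was 7.64 CPM (6.79 to 8.56) in glutamatergic, 5.32 CPM (4.15 to 6.71) in other GABAergic and 1.36 CPM (0.704 to 2.38) in medium spiny neurons, an order in which each step exceeded the counting error. All other classes gave 0 to 3 Met UMIs in Sham, and their intervals overlapped those of neurons. Leaving aside cluster 30, at 17.4 CPM from 5 UMIs in 58 nuclei, cluster 10 led at 15.7 CPM (12.4 to 19.7). It carried 4 of 5 markers of layer 5 extratelencephalic neurons, which project out of the telencephalon, and was led by Tafa1, Gpc5, Tox and Klhl1. It held 76 of 399 neuronal Met UMIs (19%) in 4.16% of the neuron nuclei. Its level was 3.14 times (2.22 to 4.36) that of all other neuron clusters in Sham L and 2.69 times (1.8 to 4.0) in Sham R.

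Cluster 18 (layer 6b-like, 4 of 4 markers) followed at 13.9 CPM (9.32 to 19.99), cluster 8 (parvalbumin interneuron-like, 3 of 4 markers, led by Btbd11, Erbb4 and Kcnc2) at 12.0 CPM (8.25 to 16.8) and cluster 5 (upper cortical layer-like, with Glis3 and Cux2) at 11.9 CPM (9.17 to 15.2). The intervals of these 4 clusters overlapped, so their order is not settled. Layer 6 corticothalamic-like cluster 3 (4.12 CPM) and cluster 4, the leading Hgf cluster (3.24 CPM), lay lower, and the indirect pathway medium spiny neurons of cluster 1 were at 0.697 CPM. By the share of nuclei with Met at 1000 UMIs cluster 10 ranked 3 among the clusters, and at a finer clustering a cluster led by Glis3, Abi3bp and Col5a3 came first at 22.2 CPM (16.2 to 29.6).

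**Figure D4:**
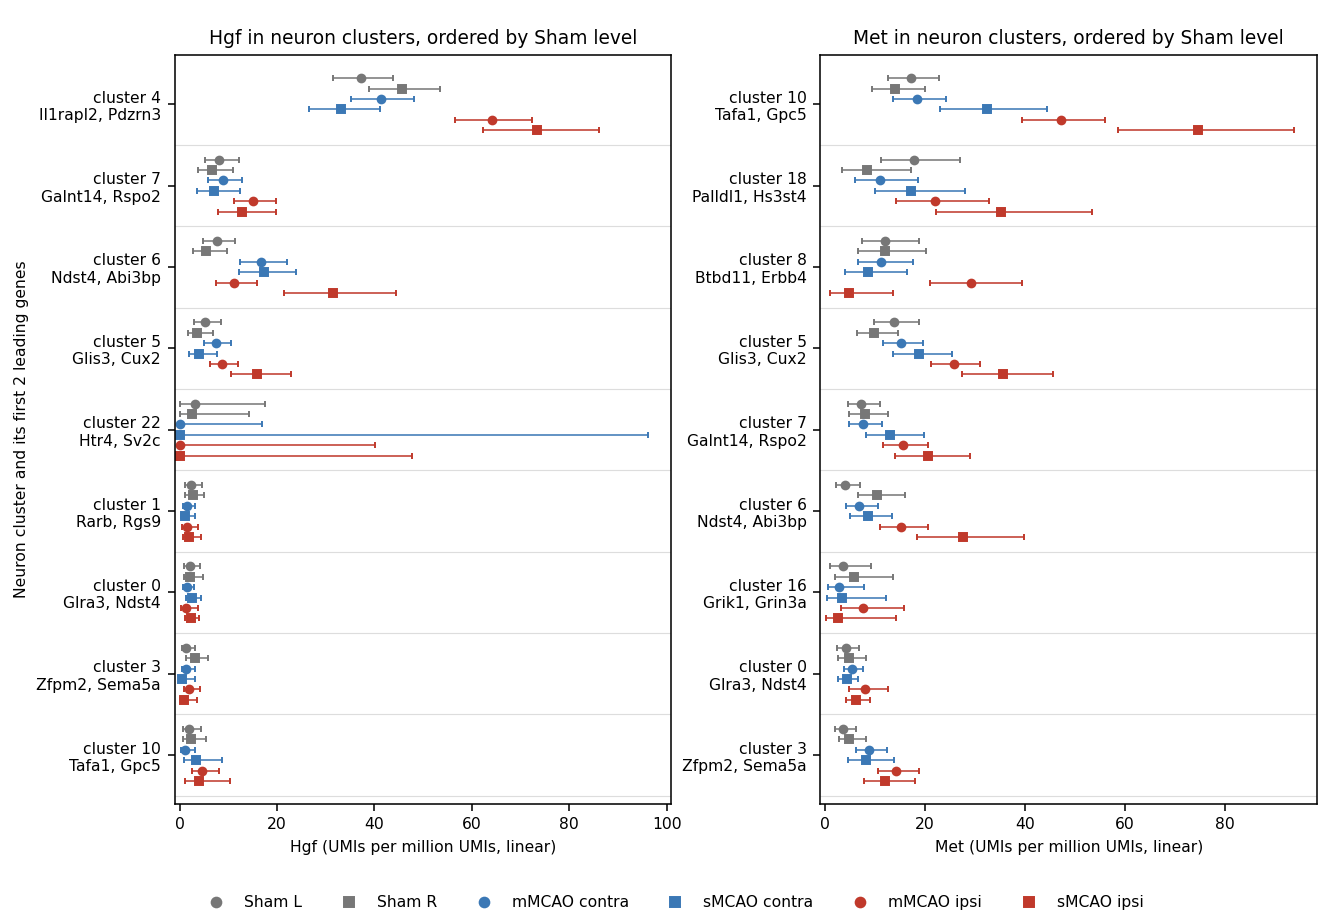
Level of Hgf and Met (CPM, horizontal axis) in neuron clusters, for each library with exact 95% Poisson intervals. Hgf is highest in cluster 4 among the large clusters, at 37.3 and 45.7 CPM in the Sham libraries, whereas Met is shared by clusters 10, 18, 8 and 5 at 11.9 to 15.7 CPM over both Sham libraries.

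Met rose in glutamatergic neurons on the side of the infarct. Its level was 8.09 and 7.06 CPM in Sham, 9.57 and 13.3 CPM contralaterally, and 19.2 and 25.5 CPM ipsilaterally. The ipsilateral libraries lay above all others and the contralateral ones above Sham. The log2 fold change was 1.43 against Sham (SE 0.18, edgeR adjusted p = 0.00628) and 0.98 against MCAO contra (SE 0.18, adjusted p = 0.0190), and MCAO contra against Sham gave 0.45 (adjusted p = 0.319). Against Sham the adjusted p was 0.112 without Sham L and 0.0636 without Sham R. Against MCAO contra it was 0.171 and 0.0748 without mMCAO contra or sMCAO contra, 0.0571 without Sham L and 0.0541 without Sham R.

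The rise was largest on the log2 scale in cluster 10 among the 9 neuron clusters where Met could be tested. Cluster 10 gave 17.1 and 13.9 CPM in Sham, 18.3 and 32.4 CPM contralaterally, and 47.2 and 74.7 CPM ipsilaterally. The ipsilateral libraries again lay above the rest. The log2 fold change was 1.81 against Sham (SE 0.27, edgeR adjusted p = 0.00202; 3.99% of genes called) and 1.37 against MCAO contra (SE 0.27, adjusted p = 0.0152; 2.27% called). The first was lost without Sham L (adjusted p = 0.0512) and the second without mMCAO contra (0.265).

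Met also rose against Sham in cluster 5, by 1.26 on the log2 scale (SE 0.25, edgeR adjusted p = 0.0304; 4.62% of genes called), and in cluster 3, by 1.60 (SE 0.31, adjusted p = 0.00936; 5.47% called). Cluster 5 went from 13.7 and 9.78 CPM in Sham to 25.8 and 35.7 CPM ipsilaterally, with 15.1 and 18.7 CPM on the contralateral side. Cluster 3 went from 3.57 and 4.8 CPM to 14.1 and 12.0 CPM, with 8.81 and 8.17 CPM contralaterally. In both clusters the contralateral libraries lay between the Sham and the ipsilateral ones. The call in cluster 5 was lost without mMCAO contra (adjusted p = 0.0793), sMCAO contra (0.0754), Sham L (0.183) or Sham R (0.217), and that in cluster 3 without Sham L (0.162), without Sham R (0.0594) or in DESeq2 (0.0886).

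All 9 tested clusters had a positive log2 fold change of Met against Sham, from 0.59 to 1.81, and 3 were called. Cluster 6 gave 1.47 (adjusted p = 0.0523), cluster 7 1.18 (0.0650), cluster 4 1.18 (0.202), cluster 18 0.95 (0.304) and cluster 8 0.81 (0.389). The parvalbumin interneuron-like cluster 8 was at 29.2 CPM in mMCAO ipsi (348 nuclei) and 4.64 CPM in sMCAO ipsi (83 nuclei), against 12.0 CPM in each Sham library. The severe value rests on few nuclei, so a difference between the pools is not settled. The contralateral and ipsilateral libraries of a severity come from the same rats, and with this pairing kept as a block Met was also called in MCAO ipsi against MCAO contra in cluster 5, where the adjusted p went from 0.104 to 0.0456 (5.47% of genes called). The same held in cluster 6, where it went from 0.0640 to 0.0304 (2.5% called).

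Among inhibitory neurons no change of Met passed the test with the filter on low counts. Other GABAergic neurons stood at 5.35 and 5.27 CPM in Sham, 4.87 and 4.29 CPM contralaterally, and 11.7 and 5.34 CPM ipsilaterally, with mMCAO ipsi alone above the rest. The log2 fold change against Sham was 0.63 (adjusted p = 0.367), where 1.13% of genes were called, and against MCAO contra 0.93 (adjusted p = 0.387). Without the filter on low counts the last was called, at 0.92 (adjusted p = 0.0296; 0.85% of genes called). Cluster 8 was 16.9% and 16.8% of the other GABAergic nuclei in Sham, 13.8% and 12.1% contralaterally, and 19.8% and 7.93% ipsilaterally. The part of this in the level of Met was not tested. Medium spiny neurons stood at 1.12 to 6.34 CPM, and the log2 fold change against Sham was 1.49 (adjusted p = 0.218). Whether the change differs between excitatory and inhibitory neurons was not tested.

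Few nuclei gave a UMI of both ligand and receptor. The number to be expected if the genes were unrelated is not given, so the counts do not show that they lie in separate nuclei. Nuclei with both transcripts numbered 8 and 2 in Sham, 12 and 8 contralaterally, and 21 and 25 ipsilaterally, beside 166 to 362 nuclei with Hgf and 161 to 525 with Met in each library. At this depth a nucleus that holds a transcript often gives no UMI for it, so these counts are a lower limit.

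Of 69 other genes of HGF and MET signalling, from proteases that cut the ligand to co-receptors, adaptors, brakes and targets, 68 were in the gene table. The list was written with earlier results of these data known, and it holds genes that the study reported from these libraries, such as Cd44 and Iqgap1. Its shares and medians, here and below, are therefore a description beside those of all genes and no test of the list. In astrocyte-like nuclei 42 of them were tested in MCAO ipsi against Sham, and 12 were higher and 0 lower (28.6%, beside 18.3% of all genes). Their median log2 fold change was 0.43 and that of all genes 0.03. The count rested on the Sham libraries and the tool, with 2 higher without Sham L, 3 without Sham R and 5 in DESeq2.

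The 12 astrocyte genes were co-receptors and partners of the receptor, brakes and signalling genes. Cd44 rose by 5.86 on the log2 scale, from 5.28 and 16.7 CPM in Sham to 60.1 and 67.8 CPM in the contralateral and 529 and 665 CPM in the ipsilateral libraries. The integrin chains Itgb1 and Itgav rose by 1.5 and 0.67, the semaphorin receptor Nrp2 by 1.55, the proteoglycan Sdc4 by 1.44 and the receptor kinase Egfr by 1.05. Among brakes, the phosphatase Ptprj rose by 1.94 and Errfi1, which inhibits the EGF receptor, by 2.82. The adaptor Gab1 rose by 0.99, Stat3 by 1.34, the scaffold Iqgap1 by 1.47 and the transcription factor Mitf by 0.85. Against MCAO contra, where 15.4% of all genes were called, 6 were higher and 1, Nrp1, was lower, by 1.18 on the log2 scale.

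In glutamatergic neurons 60 of the list were tested against Sham, and 8 were higher and 1 lower (15%, beside 6.83% of all genes), with a median log2 fold change of 0.04 beside 0.01 for all genes. They included genes that act on the ligand: the plasminogen activators Plau (3.84) and Plat (1.009) and the coagulation protease F12 (0.94). Hpn, the protease hepsin that can activate HGF, fell by 1.47 on the log2 scale. The co-receptors Cd44 (1.74) and Sdc1 (6.38), Itgb1 (0.68) and Stat3 (1.05) also rose. Against MCAO contra, where 3.73% of all genes were called, Plau, Cd44, Itgb1 and Stat3 were higher and Hpn was lower. In MCAO contra against Sham, where 0.0201% of all genes were called, Nrp1 was lower, by 0.65 on the log2 scale. Without either Sham library 0 were higher, 2 were without mMCAO contra, 3 without sMCAO contra, and 5 in DESeq2.

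In other GABAergic neurons 1 of 53 tested genes of the list was called against Sham, Stat3 (1.07), beside 1.13% of all genes. The same gene was called against MCAO contra (0.88), where 0.0306% of all genes were called. None was called in MCAO contra against Sham, where 0.0764% of all genes were.

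In the OPC-like class the same comparisons chose the members, so their counts are a description. Against Sham 13 of 45 tested genes of the list were called higher (17.3% of all genes were called), against MCAO contra 8 higher and 1 lower (16.8%), and 0 in MCAO contra against Sham (0.0269%). Cd44 went from 3.49 and 5.16 CPM in Sham, and 3.72 and 5.40 CPM contralaterally, to 110 and 252 CPM ipsilaterally. Stat3 went from 38.4 and 10.3 CPM, and 63.2 and 43.2 CPM, to 139 and 167 CPM. The brakes Spry1 and Spry2 stood at 42.8 and 63.3 CPM, and at 47.4 and 75.2 CPM, in the ipsilateral libraries, against at most 20.4 and 21.6 CPM elsewhere.

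Across the 66 sums of 11 classes by 6 libraries, the genes whose levels followed Met most closely were Plcd3 (Pearson r = 0.74), Diaph3 (0.72), S100a10 (0.70), Arntl2 (0.70) and F3 (0.68), out of 14317 genes. For Hgf they were ENSRNOG00000022136 (0.62), Lhx2 (0.61), Glis3 (0.61), Ros1 (0.61) and AABR07029596.1 (0.60). The correlation of Hgf with Met was 0.28. The sums share libraries and differ in depth, so these values describe the data and carry no p.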

How the data were processed

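Single-nucleus RNA-seq libraries were made by the authors with a 5′ droplet kit and aligned and counted with Cell Ranger 7.0.0 against the rat genome mRatBN 7.2, as the submitters' processing notes give them, and the deposited values are raw UMI counts per gene and nucleus. The 6 libraries were grouped by their labels. Nuclei with at least 500 UMIs, 250 to 5000 genes and at most 5% mitochondrial UMIs were kept, and in every library the 5% ranking highest by simulated doublet score were dropped. All deposited nuclei, including those dropped, were clustered on 3000 variable genes (31 components, 20 neighbours, Leiden resolution 1, leidenalg 0.10.2). They were gated by marker lists smoothed over neighbours, which could include dropped nuclei. The levels above use only the kept nuclei. Hgf, Met, the signalling list, the study's own OPC genes (both unless used as markers) and mitochondrial genes, 118 in all, did not enter the clustering.

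UMIs were summed per class and library. Classes with at least 20 nuclei in each library entered a fit in edgeR 4.0.16 under R 4.3.3 (quasi-likelihood test, TMM, filterByExpr, 3 residual degrees of freedom), with Benjamini-Hochberg adjustment over all genes of a class and comparison. The fit was tested on simulated data. DESeq2 1.42.0, other gates, filters and clusterings, each library left out in turn and a replicate block were the alternatives. The moderate and severe pools pair the contralateral and ipsilateral libraries, which come from the same rats, and the deviations of paired libraries correlated at r = 0.09 over 12154 genes. The gene Hgf overlaps a long non-coding gene in RefSeq, LOC103692033, and UMIs of the overlap could not be assigned.

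The members and lists were chosen with earlier results of these data known. The rule for named genes was Hgf and Met in every class, and genes of the signalling list where called or where a count was 5 or fewer. The gate limits, the tests of single neuron clusters, the subclusters of glial classes and the exclusion of 329 gated nuclei that lay inside neuron clusters were chosen after the data were seen. Markers absent from the gene table, among them Lhfpl3, Flt1, Cldn5 and Pvalb, were not used here. Some genes of the lists are counted but not reported here by name.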

Additional observations from a re-analysis of the deposited data

Results flagged for a closer look

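Values outside the comparisons above that exceeded both Sham libraries are given here with no explanation. Nuclei that passed no gate held Met at 10.4 CPM (36 UMIs, 1175 nuclei) in mMCAO ipsi and at 16.8 CPM (52 UMIs, 841 nuclei) in sMCAO ipsi, against 3.15 CPM in Sham L and 4.25 CPM in Sham R. Neuron cluster 20, which carried 3 of 5 markers of subcortical glutamatergic neurons, held Hgf at 115 CPM in sMCAO ipsi (12 UMIs, 12 nuclei), against 27.7 and 3.69 CPM in Sham L and Sham R. Neuron cluster 32, which was given no name and was led by Slc7a11, Itgbl1, Cdh9 and Frem1, held Hgf at 133 CPM in sMCAO ipsi (16 UMIs, 9 nuclei), against 0 in both Sham libraries. Both neuron values rest on few nuclei of 1 library.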

How the results depend on the processing

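All tests that left out 1 library kept the direction of the log2 fold change, and 34 of 65 kept the call. With 1 Sham library left out 5 of 22 did, which leaves that group with a lone library assumed to vary like the others. Against Sham, the log2 fold change of Hgf ran from 0.62 to 1.10 in glutamatergic neurons and from 0.51 to 0.77 in neuron cluster 4. That of Met ran from 2.32 to 7.50 in astrocyte-like nuclei (the highest over a Sham library with 0 UMIs, which sets no bound), 1.27 to 1.59 in glutamatergic neurons, 1.54 to 2.16 in cluster 10, 1.39 to 1.78 in cluster 3 and 1.03 to 1.54 in cluster 5. Against MCAO contra, Hgf ran from 0.56 to 1.03 in glutamatergic neurons and from 0.74 to 1.07 in cluster 4, and Met from 0.76 to 1.19 in glutamatergic neurons and from 0.90 to 1.74 in cluster 10.

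Of 49 tests under other alternatives 46 kept the call. The exceptions were in DESeq2, against Sham, where Met in astrocyte-like nuclei gave 3.65 (adjusted p = 0.131), Hgf in cluster 4 0.64 (0.157) and Met in cluster 3 1.59 (0.0886), and DESeq2 called 5 genes of the signalling list higher in place of 12 in astrocyte-like nuclei and 5 in place of 8 in glutamatergic neurons. The cause was not tested. Apart from Met in clusters 5 and 6, the replicate block of paired pools changed the call of neither gene: it gave Hgf in cluster 4 and Met in cluster 10 the calls they had without it.

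Of 35 levels 27 moved by less than the spread. The stricter gate gave ipsilateral Met of 31.9 CPM in OPC-like nuclei in place of 65.6 CPM and of 22.4 CPM in astrocyte-like nuclei in place of 43.4 CPM, and gave Hgf of 68.0 CPM in Sham astrocyte-like nuclei in place of 27.2 CPM. Subtracting free neuronal RNA gave 40.1 CPM for the last, and 64.3 CPM for Met in ipsilateral fibroblast-like nuclei in place of 54.0 CPM, where classes from clusters gave 93.4 CPM. At Leiden resolution 2 the leading neuron cluster in Sham stood at 48.4 CPM for Hgf and 22.2 CPM for Met. With free RNA subtracted Met in astrocyte-like nuclei no longer passed the filter and gave no test, while its ipsilateral level was 43.1 and 50.6 CPM. Levels under about 3 UMIs per class and library set the limit of what these libraries show.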
